A study of Mus musculus with 12 samples.

Results

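The genes described here make cholesterol and fatty acids, or control, move and store sterols. They were chosen by name as a list of 37 mouse symbols, and all 37 were found among the 49315 genes of the count tables. All 37 also passed the filter on low counts, as did 17164 genes in all. The list divides by role into 8 enzymes of the mevalonate and isoprenoid steps, 10 enzymes that take squalene to cholesterol, 5 regulators of the SREBP system, 4 genes of sterol transport and esterification, 5 LXR factors and targets, and 5 genes of fatty acid synthesis.

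RNA was sequenced from 12 cultures labelled as primary wild-type mouse Müller glia, the radial support cells of the retina, after 4 passages in serum-containing medium. The glia shared medium across a transwell membrane with primary retinal pigment epithelium (RPE). That epithelium had been given 100 nM PNU-282987 (PNU), which activates the α7 type of nicotinic acetylcholine receptor, in DMSO, or DMSO alone. Glia were taken after 2 h or 6 h of co-culture, which gives 4 groups (PNU or DMSO at either time) of 3 libraries each. All groups therefore share the epithelium, the solvent and the passaging. The labels give no strain, age or sex, state the DMSO concentration differently in different places, and do not say whether replicates came from separate animals or cultures. All p-values thus measure only the spread between these samples, which may be technical.

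Cells build cholesterol from acetyl-CoA through mevalonate, squalene and lanosterol. When sterols in the endoplasmic reticulum run low, SCAP escorts the SREBP transcription factors to the Golgi for cleavage, and the released factors raise the enzymes of the whole route together with those of fatty acid synthesis. INSIG proteins hold SCAP back when sterols are plentiful, and the LXR receptors respond to oxysterols by raising export genes such as Abca1 and Abcg1. In the retina, Müller glia are known as a source of cholesterol and lipid carriers for neurons.

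The members' promoters were searched for the letters that SREBP and its partner factor NF-Y are known to bind, and stretches from 6 enzymes that stood far above the DMSO libraries in 1 PNU library at 6 h, or whose groups separated at both times, are printed here. The 6 are examples that all hold NF-Y boxes, and other members that met this description are not printed. Among those, Dhcr7, Acaca and Acat2 held no NF-Y box in the window searched. RefSeq start sites on GRCm38.p6 were found for 29 of the 37 members, and 1 site per gene was searched. The window of Acaca ends at chr11:84195437, inside the gene, which starts at 84129672 on the plus strand. That of Nr1h3 also lies inside its gene. Start sites further upstream in these genes were not searched, so a missing box there says nothing about those promoters. The stretches are 120 bases long, read 5′ to 3′ on the gene's strand, and end at the base before the transcription start, except that of Hmgcs1, which is placed around its SREBP element. Capitals mark the SREBP element TCACNCCAC and the NF-Y box CCAAT, which reads ATTGG on the other strand. The stretches lie at chr13:119690174-119690293 (plus strand) for Hmgcs1, chr5:114444149-114444268 (plus strand) for Mvk, chr13:8885486-8885605 (plus strand) for Idi1, chr8:64733579-64733698 (minus strand) for Msmo1, chr1:169969206-169969325 (minus strand) for Hsd17b7 and chr11:120824548-120824667 (minus strand) for Fasn.
Hmgcs1: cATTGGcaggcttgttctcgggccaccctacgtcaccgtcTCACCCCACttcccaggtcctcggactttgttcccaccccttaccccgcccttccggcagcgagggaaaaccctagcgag
Mvk: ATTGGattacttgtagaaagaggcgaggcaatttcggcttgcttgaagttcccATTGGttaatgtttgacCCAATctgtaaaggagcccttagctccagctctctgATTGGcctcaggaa
Idi1: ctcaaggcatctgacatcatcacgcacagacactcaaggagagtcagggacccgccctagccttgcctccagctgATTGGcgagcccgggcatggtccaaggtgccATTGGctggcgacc
Msmo1: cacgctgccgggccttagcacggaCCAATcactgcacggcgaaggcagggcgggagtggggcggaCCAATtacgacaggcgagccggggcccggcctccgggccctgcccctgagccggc
Hsd17b7: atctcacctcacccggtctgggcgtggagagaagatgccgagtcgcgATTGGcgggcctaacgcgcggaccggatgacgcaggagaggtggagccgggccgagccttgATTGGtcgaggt
Fasn: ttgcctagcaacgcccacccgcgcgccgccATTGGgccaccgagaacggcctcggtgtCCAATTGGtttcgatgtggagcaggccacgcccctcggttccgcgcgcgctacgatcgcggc
In the 250 bases before the start, searched on both strands, NF-Y boxes were present in 21 of the 29 members (72.4%) and in 34.5% of the 27025 promoters of all genes in the table. There were 2 or more NF-Y boxes in 12 of the 29 (41.4%), against 10.5% of all promoters. In Fasn, 2 of the boxes overlap as CCAATTGG. The Sp1 box GGGCGG was present in 20 of the 29 (69.0%) and in 32.9% of all promoters. The SREBP element in this spelling was present in 1 member, Hmgcs1, at position -137 from the start (3.45% of the 29, against 1.04%). The E-box CACGTG was present in Abca1, Hsd17b7, Insig1 and Sc5d (13.8%, against 6.05%), and the direct-repeat LXR element was in none of the 29 and in 0.0111% of all promoters. These matches are a description of the letters in this window.

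Library totals ran from 44332013 to 66518799 counts, and levels are given as counts scaled to the library's total (CPM). At these totals, 3 counts, taken as the floor of detection, correspond to 0.0451 to 0.0677 CPM, and every member lay above that floor in every library. The marker lists did not place the cultures clearly among Müller glia. Of 22 Müller glia markers, 9 had a median over 1 CPM, led by Vim (6063 to 7451 CPM), an intermediate filament also found in mesenchyme, and the glial retinaldehyde-binding protein gene Rlbp1 reached at most 0.302 CPM. The collagen gene Col1a1 stood at 3509 to 4895 CPM, and the RPE isomerase gene Rpe65 at most at 0.0442 CPM. These are bulk cultures, so fewer cells of a type and less RNA per cell cannot be told apart.

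Some libraries stood apart from their groups. Replicates 2 and 3 of PNU were almost the same library at 2 h, and again at 6 h, as were the 3 DMSO replicates at 6 h. The pairwise coefficient of variation was 0.0163 to 0.0223 in these pairs and 0.147 to 0.377 in the remaining pairs of a group. Their counts still differed by more than sampling noise, which does not show that they came from separate cultures. They were kept as separate libraries, so a stated n counts libraries. The Y-linked gene Ddx3y, a mark of which animals' cells a culture holds, was at 5.00 CPM in DMSO at 2 h replicate 3, 2.23 CPM in PNU at 2 h replicate 1, and 7.43 and 6.74 CPM in PNU at 6 h replicates 2 and 3, and at most 0.141 CPM in the other 8 libraries. At 6 h no DMSO library lay over 1 CPM of Ddx3y. PNU treatment and the composition of the cultures thus cannot be told apart for PNU at 6 h replicates 2 and 3, and PNU at 6 h replicate 1 is the only PNU library at that time whose Ddx3y level was like that of the DMSO libraries.

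Most of the 37 genes were abundant. By TPM, which scales counts by gene length and library total, the highest median level over the 12 libraries was that of Npc2, the soluble lysosomal cholesterol carrier, at 361 TPM. Scd2, a stearoyl-CoA desaturase, followed at 194 TPM, then Acly, which makes cytosolic acetyl-CoA, at 152 TPM and Fasn, the fatty acid synthase, at 128 TPM. Of the sterol enzymes, Hmgcs1, which makes HMG-CoA, was highest at 88.0 TPM and Dhcr7, a reductase that ends the route to cholesterol, lowest at 6.99 TPM. Srebf2 (115 TPM), the SREBP that chiefly drives sterol enzymes, was above Srebf1 (64.7 TPM), and the LXR gene Nr1h2 (81.2 TPM) above its relative Nr1h3 (8.94 TPM). The sterol exporter gene Abcg1 had the lowest median, 0.576 TPM.

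**Figure D1:**
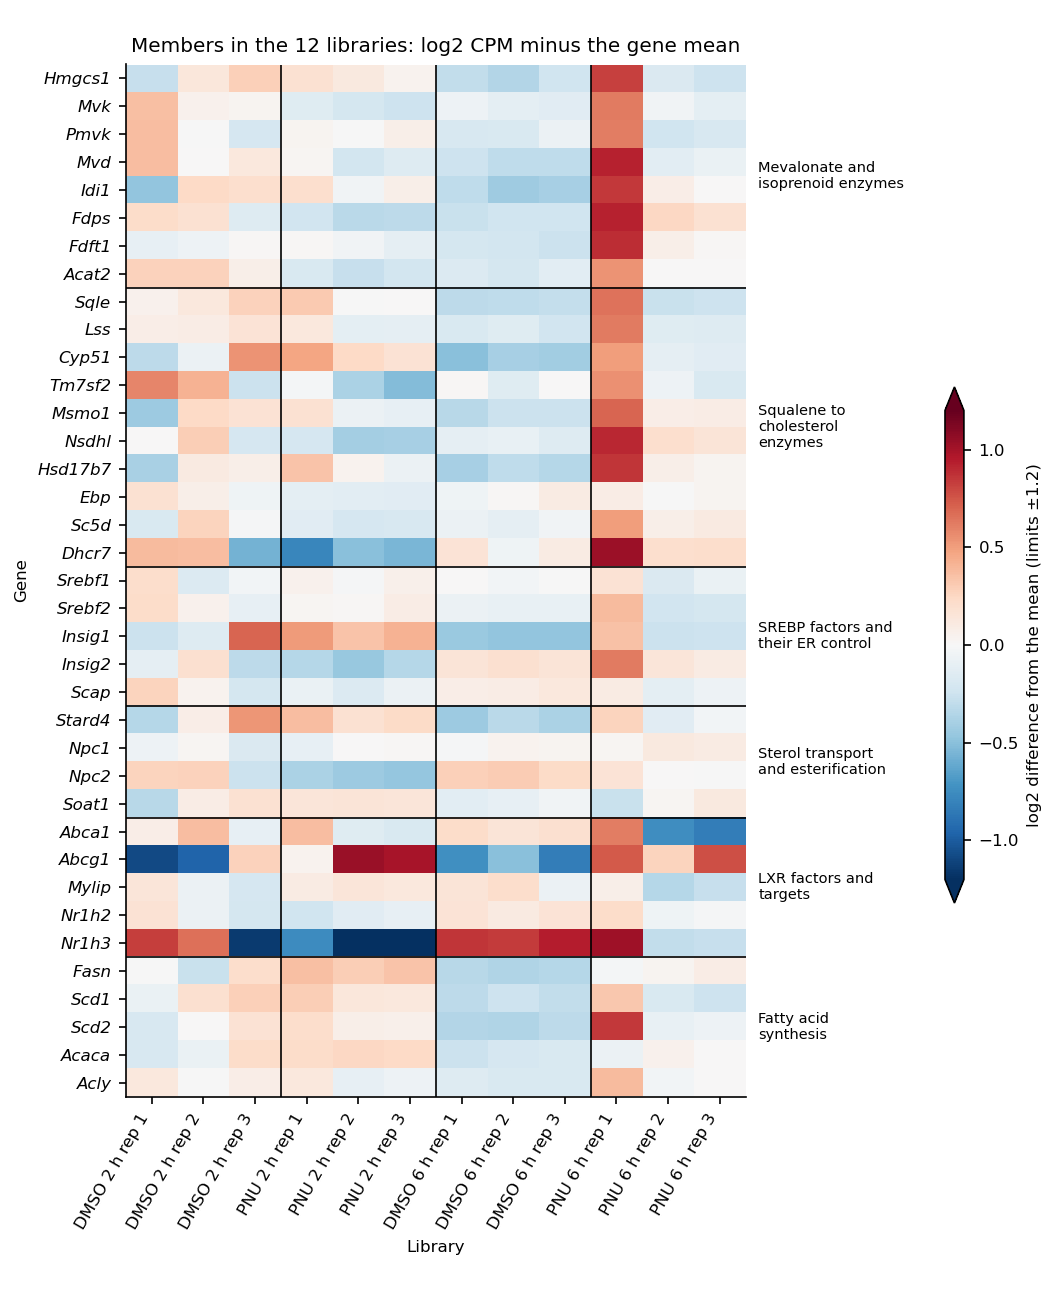
Colour shows log2 CPM of each of the 37 genes (rows, by role) in each of the 12 libraries (columns) minus the gene's mean over the libraries. PNU at 6 h replicate 1 is red for nearly all sterol enzymes, while PNU at 6 h replicates 2 and 3 are pale, and DMSO at 2 h replicate 3 resembles the PNU libraries at 2 h for Nr1h3, Insig1 and Npc2.

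The question at each time is whether epithelium treated with PNU shifts these genes in the glia. At 6 h, 31 of the 37 members had a higher mean with PNU, with a median log2 fold change of 0.33, but no member passed the test. Over all 17164 genes the share with a higher mean was 49.3% and the median -0.0049. All 8 mevalonate enzymes (median 0.58), all 10 squalene-to-cholesterol enzymes (median 0.46) and all 5 fatty acid genes (median 0.32) were on the higher side, and so was 1 of the 5 LXR genes (median -0.26). By edgeR's quasi-likelihood test with Benjamini-Hochberg adjustment over all genes, 0 members were called at an adjusted p of 0.05, where 1.05% of all genes were. At an unadjusted p under 0.05 there were 16 members, all higher, where 8.61% of all genes were higher and 7.02% lower. The PNU libraries lay entirely above the DMSO libraries in 20 members and entirely below in 1, Npc2, against 14.1% and 20.8% of all genes. These counts and tests take the nearly identical libraries as separate samples, which the labels do not settle. DESeq2 called 9 members, all higher, beside 923 of 16753 genes, and limma-voom called 0, beside 180 of 17164 genes. Without DMSO at 2 h replicate 3, which enters only the shared spread here, edgeR called 6, all higher, beside 1606 of 17641 genes. Without DMSO at 2 h replicate 2 it called Fasn, beside 260 of 17675 genes.

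PNU at 6 h replicate 1 held most of this difference. The summed CPM of the 18 sterol enzymes was 761, 760 and 771 in the 3 DMSO libraries at 6 h, and 1461, 873 and 861 in PNU replicates 1, 2 and 3. Replicate 1 was thus far above every DMSO library, and replicates 2 and 3 were modestly above them. Against the DMSO mean, the median log2 difference of these 18 enzymes was 0.96 in replicate 1, 0.15 in replicate 2 and 0.17 in replicate 3. All 18 were above the DMSO mean in replicate 1, and 15 of 18 in each of the others. Over all 37 members the medians were 0.65, 0.12 and 0.14, and over all genes tested -0.033, -0.013 and -0.022. Without replicate 1 the median log2 fold change of the members was 0.15, and 2 members were called, Fdps as higher and Abca1 as lower. Of all genes, 1057 of 17604 were called in that fit, a share near that of the members.

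**Figure D2:**
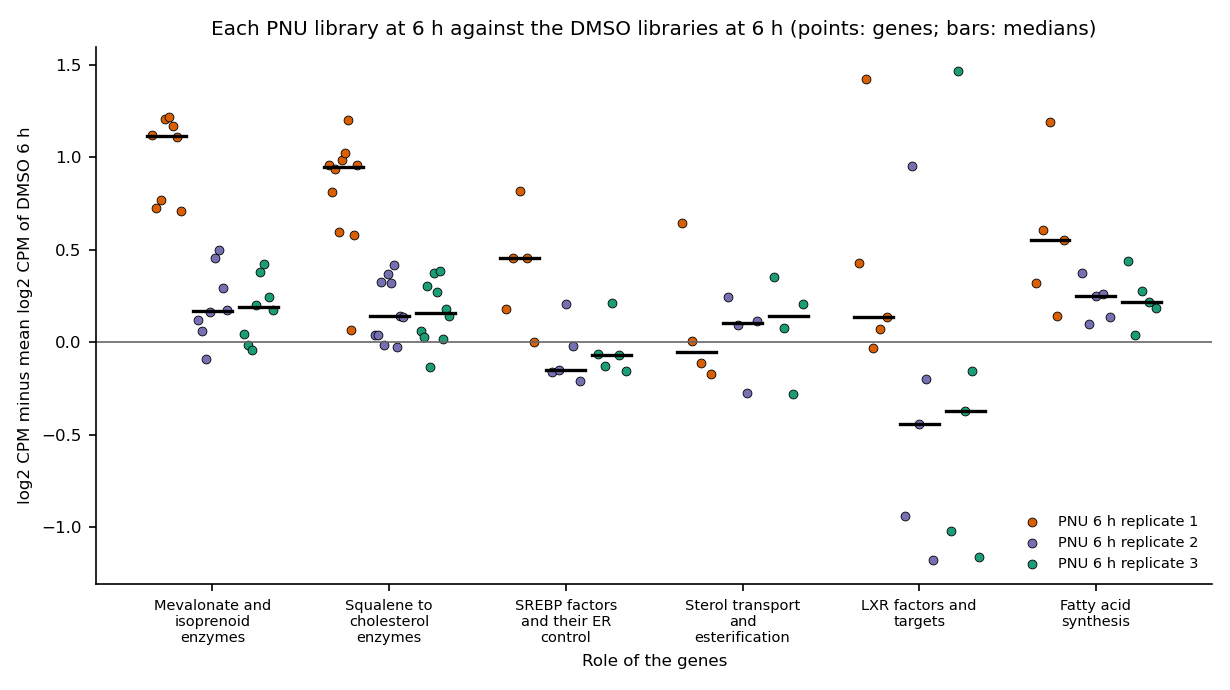
Each point is a member's log2 CPM in 1 PNU library at 6 h minus the mean log2 CPM of the 3 DMSO libraries at 6 h, by role, with bars at the medians. For the mevalonate enzymes the medians are 1.11, 0.17 and 0.19 in replicates 1, 2 and 3, and for the LXR genes 0.14, -0.44 and -0.37.

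Read against Ddx3y, the libraries under 1 CPM gave the larger difference. PNU replicate 1 against the 3 DMSO libraries, all under 1 CPM, had 34 of 37 members higher, with a median log2 difference of 0.65, and 23 of them (62.2%) by more than 0.5, as against 9.91% of all genes. Of all genes 44.2% were higher in that comparison, with a median of -0.033. PNU replicates 2 and 3, both over 1 CPM, had 25 of 37 higher than the same DMSO libraries, with a median of 0.14, and 1 member (2.70%) by more than 0.5, as against 11.1% of all genes. Here 47% of all genes were higher, with a median of -0.022. When only libraries under 1 CPM were fitted, the members' median log2 fold change at 6 h was 0.67. That comparison has 1 PNU library, which is assumed to vary like the others. In marker lists, the summed CPM of the 12 pericyte and smooth muscle genes was 4438 to 4498 with PNU at 6 h and 3693 to 3755 with DMSO, led by Acta2 and Pdgfrb. That of the 10 adipocyte genes was 103 to 111 and 202 to 209, with 5 genes over a median of 1 CPM, led by Plin4 and Pparg, while the adipocyte-defining gene Adipoq had a median of 0.0749 CPM. The sum of the 12 photoreceptor and neuron genes was 35.7 to 54.2 and 17.0 to 19.6 CPM, and over the 12 libraries Tubb3 stood at 15.6 to 52.5 CPM and Pax6 at 0.0945 to 14.9 CPM. That of the 10 macrophage and microglia genes was 12.7 to 25.9 and 9.47 to 10.5 CPM, led by Lyz2 and Csf1r, with a median of 0 for Tyrobp and at most 0.235 CPM for Ptprc. That of the 8 endothelial genes was 2.69 to 3.18 and 1.55 to 2.20 CPM, with no gene over a median of 1 CPM. The 12 fibroblast genes summed to 22750 to 24338 and 24339 to 24511 CPM, ranges that nearly met. The lists named before that one separated the groups more clearly. The Müller glia and RPE lists overlapped between the groups. The part of these markers in the sterol gene levels was not tested.

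Among the mevalonate enzymes, Fdps, which makes farnesyl diphosphate, was at 40.4, 41.1 and 41.1 CPM with DMSO at 6 h and at 91.8, 57.6 and 54.8 CPM with PNU. Its log2 fold change was 0.75 ± 0.18 (SE, n = 3 per group), with an edgeR adjusted p of 0.0721, the lowest of any member at 6 h. All 3 PNU libraries lay above all DMSO libraries, with replicate 1 far above the rest. Exons of Fdps overlap those of Gm43738 on the same strand over 26.7% of their length, and its sequence has close copies elsewhere in the genome, so the level of its counts is uncertain. Idi1, the isopentenyl diphosphate isomerase, was at 13.0, 12.0 and 12.2 CPM with DMSO and at 28.8, 17.0 and 16.1 CPM with PNU (log2 fold change 0.75 ± 0.22, edgeR adjusted p = 0.133). Fdft1, squalene synthase, was at 43.9, 43.5 and 42.4 CPM and at 93.5, 53.1 and 51.3 CPM (0.62 ± 0.19, edgeR adjusted p = 0.135). Both had no overlap between groups, again with replicate 1 highest, and 26.8% of the exonic length of Fdft1 is shared with Ctsb on the other strand.

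Hmgcs1, whose promoter holds the SREBP element printed above, was at 86.6, 83.5 and 89.8 CPM with DMSO at 6 h and at 188, 94.1 and 89.3 CPM with PNU. Replicate 1 was far above the DMSO libraries, while replicate 3 lay within the DMSO range. Mvk and Pmvk, the mevalonate and phosphomevalonate kinases, showed the same split. Mvk was at 78.8 CPM in PNU replicate 1 and at 46.6 to 49.7 CPM in the other 5 libraries at 6 h, and Pmvk at 21.4 CPM and 11.8 to 13.3 CPM. Mvd, the diphosphomevalonate decarboxylase, stood at 62.8, 30.5 and 31.4 CPM with PNU and at 26.8 to 28.0 CPM with DMSO. Acat2, the cytosolic thiolase that opens the route, was at 58.2, 40.1 and 40.1 CPM with PNU and at 34.4 to 36.7 CPM with DMSO (log2 fold change 0.39 ± 0.14, edgeR adjusted p = 0.192).

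In the steps after squalene, Hsd17b7, a sterol ketoreductase, was at 36.5, 39.0 and 38.1 CPM with DMSO at 6 h and at 87.2, 50.6 and 49.5 CPM with PNU (log2 fold change 0.74 ± 0.21, edgeR adjusted p = 0.122). Msmo1, the sterol methyl oxidase, was at 48.2, 50.8 and 50.8 CPM and at 98.9, 64.4 and 64.6 CPM (0.62 ± 0.19, edgeR adjusted p = 0.140). Nsdhl, which acts with them to remove the methyl groups of lanosterol, was at 30.7, 31.1 and 29.7 CPM and at 62.0, 38.0 and 36.8 CPM (0.60 ± 0.18, edgeR adjusted p = 0.147). These enzymes of sterol demethylation were thus above DMSO in every PNU library. Cyp51, the lanosterol demethylase, and Sc5d, a sterol desaturase, also had no overlap between groups, at 71.0 to 110 CPM against 55.0 to 59.2 CPM and at 80.1 to 108 CPM against 70.9 to 74.0 CPM.

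Other enzymes of these steps were high chiefly in replicate 1. Sqle, squalene epoxidase, was at 120, 121 and 122 CPM with DMSO and at 235, 124 and 126 CPM with PNU. Lss, lanosterol synthase, reached 65.7 CPM in PNU replicate 1 and stood at 36.3 to 38.6 CPM in the other 5 libraries. Dhcr7 stood at 26.9 CPM there and at 12.7 to 15.3 CPM in the others. Tm7sf2, a sterol reductase, was at 19.3 CPM and at 11.6 to 13.3 CPM, and shares 15.3% of its exonic length with Vps51 on the same strand. Ebp, the sterol isomerase, differed least, at 25.1, 23.6 and 24.2 CPM with PNU and at 22.9, 23.8 and 25.3 CPM with DMSO.

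**Figure D3:**
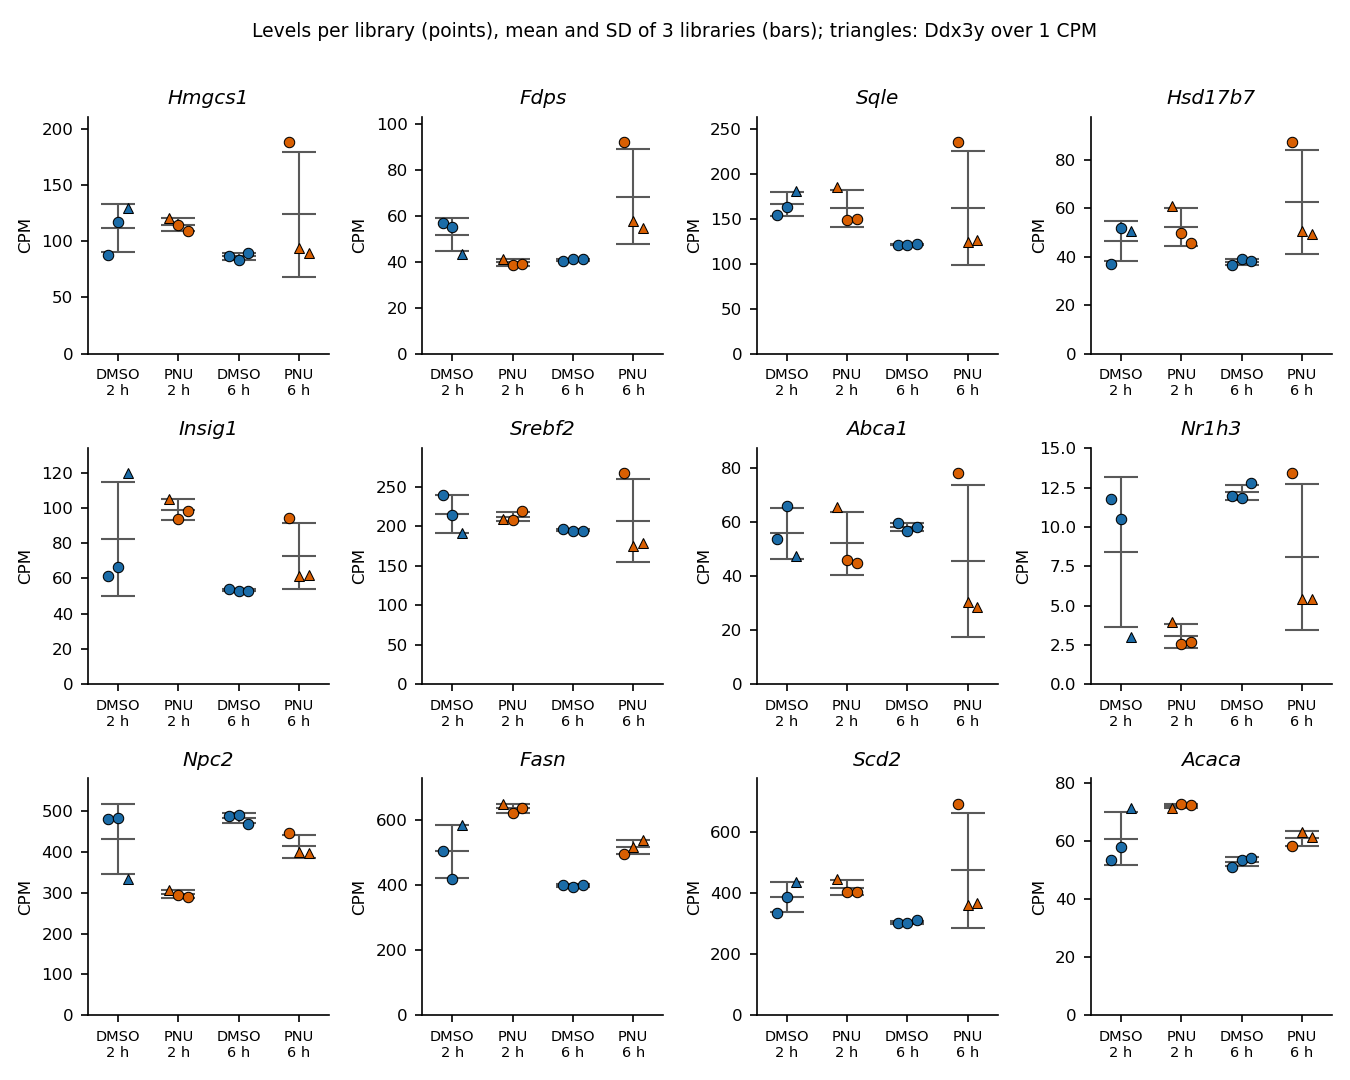
CPM of 12 members in every library, with the mean and SD of 3 libraries per group, and triangles for libraries with Ddx3y over 1 CPM. For Hmgcs1, Sqle and Scd2 the circle of PNU at 6 h replicate 1 lies far above all else, for Abca1 the 3 PNU libraries at 6 h lie on both sides of DMSO, and Fasn and Acaca are higher with PNU at both times.

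The regulators of the route other than Insig1 differed less than most of the enzymes. Insig1, itself a known SREBP target, was at 54.0, 53.2 and 53.0 CPM with DMSO at 6 h and at 94.1, 61.5 and 61.9 CPM with PNU, without overlap. Srebf2 was at 267, 175 and 178 CPM with PNU and at 194 to 196 CPM with DMSO, so replicate 1 lay above the DMSO libraries and the other two below. Srebf1 showed the same order, at 146, 115 and 123 CPM with PNU and 126 to 130 CPM with DMSO. Scap was at 144, 124 and 129 CPM with PNU and at 142 to 147 CPM with DMSO. Insig2 was at 80.1 CPM in PNU replicate 1 and at 55.4 to 59.2 CPM in the other 5 libraries.

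The sterol transport genes went in different directions. Stard4, a cytosolic sterol carrier, was at 28.6, 21.6 and 23.3 CPM with PNU at 6 h and at 17.5 to 19.0 CPM with DMSO. Npc2 was lower with PNU in every library, at 448, 400 and 397 CPM against 488, 492 and 469 CPM. Npc1, its membrane partner in the lysosome, stood at 68.6 to 72.9 CPM and at 66.7 to 69.4 CPM. Soat1, which esterifies cholesterol for storage, was at 64.6, 78.8 and 84.0 CPM against 71.0 to 75.2 CPM, so replicate 1 was below DMSO and the others above.

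Abca1, the sterol exporter induced by LXR, was at 78.1 CPM in PNU at 6 h replicate 1 and at 30.3 and 28.5 CPM in replicates 2 and 3, while the DMSO libraries stood at 59.4, 56.6 and 58.1 CPM. The 3 PNU libraries therefore lay on both sides of the control. Nr1h3 showed a similar split, at 13.4, 5.39 and 5.46 CPM with PNU and at 12.0, 11.9 and 12.8 CPM with DMSO. Mylip, the LXR-induced ubiquitin ligase that degrades lipoprotein receptors, was at 7.85, 5.91 and 6.19 CPM against 7.13 to 8.68 CPM, and Nr1h2 at 116, 96.2 and 99.1 CPM against 108 to 112 CPM. Abcg1 went the other way, at 1.25, 0.902 and 1.29 CPM with PNU and 0.451, 0.529 and 0.423 CPM with DMSO (log2 fold change 1.30 ± 0.38, edgeR adjusted p = 0.130). It is the only LXR gene of the 5 whose groups did not overlap.

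All 5 fatty acid genes lay above DMSO in every PNU library at 6 h, and their summed level was 1832, 1368 and 1399 CPM against 1147, 1141 and 1154 CPM. Fasn was at 495, 514 and 537 CPM with PNU and at 400, 392 and 398 CPM with DMSO (log2 fold change 0.39 ± 0.11, edgeR adjusted p = 0.123). Acaca, the acetyl-CoA carboxylase, was at 58.4, 63.4 and 61.4 CPM against 51.2, 53.4 and 54.2 CPM (0.22 ± 0.094, edgeR adjusted p = 0.285). In these genes replicate 1 was the lowest PNU library, unlike in the sterol enzymes. Scd2 was at 692, 360 and 368 CPM against 301, 300 and 310 CPM (0.66 ± 0.21, edgeR adjusted p = 0.159), Scd1 at 207, 145 and 139 CPM against 133 to 139 CPM, and Acly at 379, 284 and 293 CPM against 256 to 261 CPM. Scd1 and Scd2 are close paralogs, and the treatment of reads that match both in the counting is not given here.

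At 2 h the members as a list did not lean either way. With PNU 18 of 37 had a higher mean, with a median log2 fold change of -0.0060, beside 48.3% and -0.015 for all genes. No member was called by edgeR (0.291% of all genes were), and 8 had an unadjusted p under 0.05, where 30% of all genes did, with 3 higher (all genes: 12.3%) and 5 lower (17.7%). DESeq2 called 4, Abcg1 and Fasn as higher and Npc2 and Nr1h3 as lower, and limma-voom called 0. Over all genes with an adjusted p, DESeq2 called 2511 of 15090, a larger share than among the members, and limma-voom 73 of 17164. The groups did not overlap in 2 members that were higher with PNU, Fasn and Acaca, and in 7 that were lower, Mvk, Fdps, Nsdhl, Ebp, Insig2, Acat2 and Npc2, against 9.06% and 13.6% of all genes. Without DMSO at 2 h replicate 3, edgeR called 13 members, 7 higher and 6 lower, but also 7724 of 17641 genes, a larger share. Without PNU at 6 h replicate 1 it called Acat2 as lower, and 487 of 17604 genes, a similar share. Marker lists also separated the groups at 2 h, PNU against DMSO: Müller glia at 8184 to 8595 against 6837 to 8081 CPM in sum, pericyte and smooth muscle at 4476 to 4919 against 3606 to 4341 CPM, adipocyte at 75.5 to 87.1 against 90.8 to 208 CPM, and photoreceptor and neuron at 35.8 to 50.3 against 16.9 to 28.3 CPM. The other 4 lists overlapped. The part of these markers in the members' differences at 2 h was not tested.

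The summed level of the sterol enzymes at 2 h was 886, 985 and 993 CPM with DMSO and 972, 858 and 845 CPM with PNU, with overlap between the groups. Npc2 was at 482, 484 and 334 CPM with DMSO and at 307, 296 and 289 CPM with PNU (log2 fold change -0.51 ± 0.13, edgeR adjusted p = 0.0636). DMSO replicate 3 stood much nearer the PNU libraries than its own group. Fasn was at 503, 419 and 584 CPM with DMSO and at 648, 620 and 637 CPM with PNU (0.37 ± 0.11, edgeR adjusted p = 0.0787), and Acaca at 53.6, 57.9 and 71.4 CPM and at 71.5, 72.9 and 72.5 CPM (0.28 ± 0.094, edgeR adjusted p = 0.0923). In both, DMSO replicate 3 was again the nearest to the PNU libraries. Acat2 stood at 48.3, 48.5 and 41.8 CPM with DMSO and at 35.3, 33.1 and 34.2 CPM with PNU (-0.40 ± 0.14, edgeR adjusted p = 0.0926).

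Nr1h3 was at 11.8, 10.5 and 2.99 CPM with DMSO at 2 h and at 3.93, 2.57 and 2.68 CPM with PNU (log2 fold change -1.43 ± 0.48, edgeR adjusted p = 0.0943). Abcg1 was at 0.355, 0.386 and 0.907 CPM and at 0.773, 1.54 and 1.49 CPM (1.23 ± 0.37, edgeR adjusted p = 0.0791). Dhcr7 stood at 17.1, 17.0 and 8.90 CPM and at 7.67, 9.27 and 8.97 CPM (-0.70 ± 0.27, edgeR adjusted p = 0.117), and Tm7sf2 at 19.8, 17.6 and 11.0 CPM and at 12.9, 10.1 and 9.17 CPM (-0.55 ± 0.24, edgeR adjusted p = 0.153). In each of these genes, DMSO at 2 h replicate 3, the DMSO library with Ddx3y over 1 CPM, lay within or beside the PNU range. Insig1 at 61.6, 66.4 and 120 CPM with DMSO and 93.7 to 105 CPM with PNU, Cyp51 at 62.4, 74.3 and 113 CPM and 87.8 to 108 CPM, and Stard4 at 18.7, 25.1 and 34.3 CPM and 27.0 to 30.7 CPM had the same arrangement.

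Libraries matched on Ddx3y gave no lean of the list at 2 h that was shared by both matched comparisons. PNU replicate 1 against DMSO replicate 3, both over 1 CPM, had 18 of 37 members higher, with a median log2 difference of -0.0028, and 0 members higher by more than 0.5 (7.01% of all genes). Of all genes 39% were higher in that comparison, with a median of -0.058. It set 1 PNU library at 2.23 CPM of Ddx3y against 1 DMSO library at 5.00 CPM, so the level itself was not matched. The 2 PNU and 2 DMSO libraries under 1 CPM had 17 of 37 higher, with a median of -0.086 (all genes: 48.1% and -0.026). The sterol enzymes had medians of -0.051 and -0.22 in these matched comparisons, with 6 of 18 higher in each. The fatty acid genes had medians of 0.034 and 0.16, with 5 and 4 of 5 higher.

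**Figure D4:**
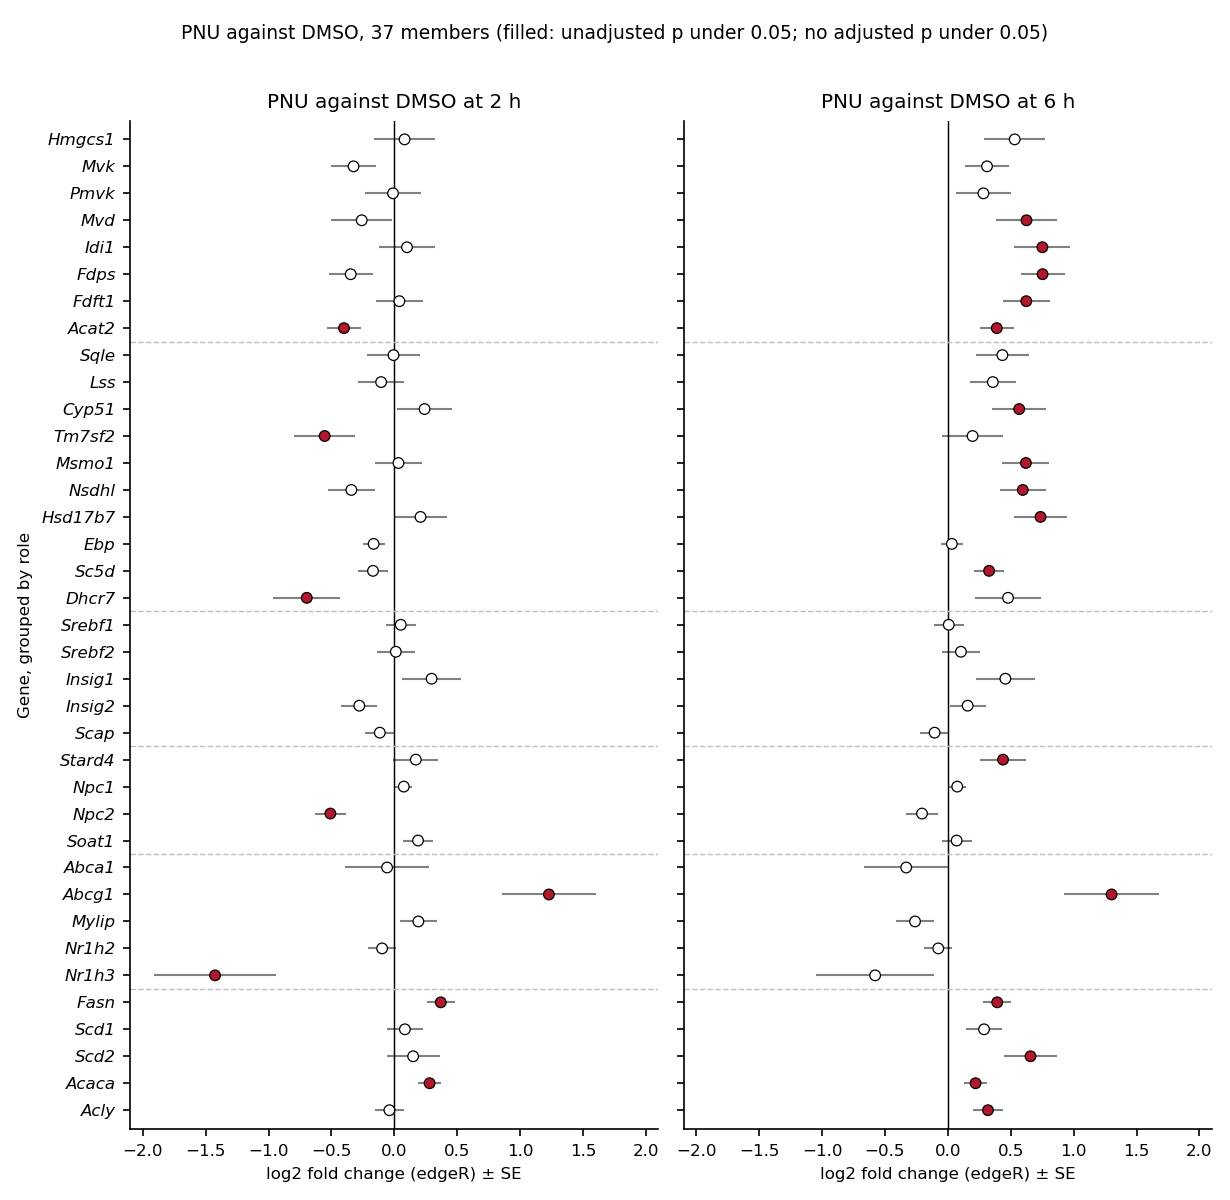
Log2 fold change with SE of PNU against DMSO for each member at 2 h (left) and 6 h (right), from edgeR, with filled points where the unadjusted p was under 0.05 (8 members at 2 h, 16 at 6 h). The sterol enzymes lie on both sides of 0 at 2 h and to its right at 6 h, and no member had an adjusted p under 0.05.

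Whether PNU acted differently at 6 h than at 2 h was tested as an interaction. The interaction was positive in 31 of 37 members, with a median of 0.36 on the log2 scale (54% and 0.034 for all genes). edgeR called 0 members, where 0.035% of all genes were called, and 10 members had an unadjusted p under 0.05, all positive, where 5.98% of all genes were positive and 5.3% negative at that threshold. DESeq2 called 3 members (Fdps, Nsdhl and Acat2), beside 279 of 15755 genes, and limma-voom 0, beside 4 of 17164 genes. For Fdps the difference was 1.10 ± 0.25 (edgeR adjusted p = 0.162), for Acat2 0.79 ± 0.19 (edgeR adjusted p = 0.186) and for Nsdhl 0.94 ± 0.26 (edgeR adjusted p = 0.235). Without PNU at 6 h replicate 1 the median difference of the members was 0.14 and Fdps was called, beside 141 of 17604 genes. Without DMSO at 2 h replicate 3 there were 6 members called, all positive, beside 2947 of 17641 genes, a similar share.

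Time within DMSO and time within PNU share libraries with the comparisons above, so their values are set side by side only. From 2 h to 6 h with DMSO, 29 of 37 members had a lower mean, with a median log2 fold change of -0.28 (all genes: 46.8% higher, median -0.014). None was called by edgeR, as was no gene of the 17164 (0%). At an unadjusted p under 0.05 there were 9 members, all lower, beside 2.76% of all genes lower and 2% higher, and DESeq2 and limma-voom called 0 members. The 6 h libraries lay entirely below those at 2 h in 13 members and above in 1, Nr1h3, against 3.64% and 6.12% of all genes. All 18 sterol enzymes and all 5 fatty acid genes had a lower mean at 6 h. Fasn had a log2 fold change of -0.38 ± 0.11, Scd1 of -0.46 ± 0.14 and Insig1 of -0.67 ± 0.24 (edgeR adjusted p = 0.888 for each). The sterol enzyme sums of PNU at 6 h replicates 2 and 3, 873 and 861 CPM, lay within the range of the 6 libraries at 2 h, 845 to 993 CPM, and replicate 1, at 1461 CPM, lay above it.

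From 2 h to 6 h with PNU, 5 members rose and 2 fell by edgeR, where 7.42% of all genes rose and 8.66% fell. The 7 called of 37 are a share near the 16.1% called among all genes. A higher mean at 6 h was found in 24 of the 37, beside 52.4% of all genes. Insig2, which retains SCAP in the endoplasmic reticulum, rose from 40.9, 37.8 and 41.1 CPM to 80.1, 57.5 and 55.4 CPM, a log2 fold change of 0.63 ± 0.14 (adjusted p = 0.0186). Fdps rose from 38.7 to 41.3 CPM at 2 h to the levels given above (0.72 ± 0.18, adjusted p = 0.0224). Dhcr7 rose by 1.09 ± 0.27 (adjusted p = 0.0236), Nsdhl by 0.74 ± 0.18 (adjusted p = 0.0251) and Npc2 by 0.42 ± 0.13 (adjusted p = 0.0427), while Fasn fell by 0.36 ± 0.11 and Acaca fell by 0.30 ± 0.094 (adjusted p = 0.0490 for both). In all 7 the PNU libraries at 6 h did not overlap those at 2 h, as was so in 12 members that were higher and 4 that were lower in all, and in 30.7% and 21% of all genes. These calls rested on few libraries. With nearly identical libraries summed, edgeR called none of the 7 and none of the 18400 genes then tested, of which 2236 had an unadjusted p under 0.05. Fasn and Acaca were also not called with DESeq2 size factors, upper-quartile scaling, no filter or limma-voom. Leaving out PNU at 2 h replicate 2 or replicate 3 left 0 of the members called, leaving out PNU at 2 h replicate 1 left 2 (Nsdhl and Insig2), and leaving out PNU at 6 h replicate 2 or 3, or any of the DMSO libraries at 6 h, left 4, Fdps, Nsdhl, Dhcr7 and Insig2. Without DMSO at 2 h replicate 3 there were 11. Over all 12 fits that left out 1 library, 566 to 6026 genes were called. The member counts of single fits thus tell which calls were kept, and not how the members differ from all genes. Without PNU at 6 h replicate 1 there were 6 members called, the median log2 fold change of the 37 turned from 0.11 to -0.098, and Sqle, Scd1 and Abca1 were called as lower.

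Other genes of these pathways, listed apart from the 37, gave no call by edgeR for PNU against DMSO at either time, or for the difference between the times. Of 14 further sterol enzymes and branch genes, 4 were higher and 1 lower at 6 h at an unadjusted p under 0.05, a threshold passed by 8.61% of all genes as higher and 7.02% as lower. Of 27 further genes of fatty acid synthesis, elongation and desaturation 4 were higher and 0 lower at it. Of 13 further genes of SREBP processing and sterol sensing 2 were higher and 0 lower, and of 23 further transport, storage and oxysterol genes 3 were higher and 2 lower. At 2 h, 3 of the 27 fatty acid genes were higher and 11 lower at that threshold (all genes: 12.3% and 17.7%). The counts at 2 h were 2 and 2 for the 14 sterol genes, 3 and 3 for the 13 SREBP genes, and 4 and 4 for the 23 transport genes. Of the 20 genes of fatty acid oxidation, 1 had a higher mean with PNU at 2 h, the median log2 fold change was -0.32, and 13 were lower at an unadjusted p under 0.05 (17.7% of all genes were), with 0 called by edgeR. At 6 h, 3 of these 20 had a higher mean with PNU and the median was -0.092. At the same threshold 0 were higher and 3 lower then (all genes: 8.61% and 7.02%).

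Over time in PNU, 11 of the 97 genes tested in these 5 lists passed the test (11.3%, below the 16.1% of all genes). Lpin1, a phosphatidate phosphatase, rose from 8.73, 10.1 and 9.55 CPM to 28.0, 20.1 and 19.6 CPM (log2 fold change 1.19). With DMSO, Lpin1 was at 27.5, 23.9 and 9.20 CPM at 2 h and at 22.9 to 24.2 CPM at 6 h. Slc25a1, the mitochondrial citrate carrier that supplies cytosolic acetyl-CoA, rose from 65.8 to 73.4 CPM to 104 to 143 CPM (0.73). Its DMSO levels were 138, 111 and 70.0 CPM at 2 h and 112 to 114 CPM at 6 h. Oxsm, of mitochondrial fatty acid synthesis, rose by 0.54, and Cpt1a and Etfdh, of fatty acid oxidation, by 0.41 and 0.28. Ch25h, which makes an oxysterol that holds SREBP inactive, fell from 22.3, 20.4 and 19.5 CPM to 9.10, 10.5 and 10.4 CPM (-1.11, edgeR adjusted p = 0.00676). With DMSO, Ch25h was at 8.14, 8.78 and 14.4 CPM at 2 h and at 10.6 to 12.5 CPM at 6 h. The sterol carrier genes Osbpl6 and Gramd1b fell by 0.93 and 0.81 and the lipoprotein receptor gene Vldlr fell by 0.52, while among regulators Paqr3 rose by 0.52 and Trib1 fell by 0.70.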

How the data were processed

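Poly(A) RNA of 12 libraries was sequenced as paired 150 bp reads. Per the labels' protocols, the authors used fastp 0.23.2 for trimming, STAR 2.5.2b for alignment (GRCm38) and featureCounts from Subread 1.5.2 for gene counts. DESeq2 appears in the submitters' processing notes without a stated role. Raw counts, not normalized, were deposited. Strand, multi-mapping and annotation release are not given in the sources used here, so genes with overlapping or near-identical partners are uncertain. Symbols came from GENCODE M21 (48970 of 49315 identifiers).

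Groups were taken from the sample titles. CPM uses the total of all counted genes, and TPM the gene lengths in the tables. Tests of the counts used edgeR 4.0.16 (R 4.3.3): filterByExpr, TMM, 4 group means over 12 libraries, robust quasi-likelihood F test and Benjamini-Hochberg adjustment over 17164 genes, threshold 0.05, in 5 contrasts. The SE is the log2 fold change divided by the square root of F. The common biological coefficient of variation was 0.198. Scripts were tested on simulated counts. Promoters came from RefSeq, GRCm38.p6. Levels near 3 counts are limited by counting error only as far as that floor states.

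The rule for named genes was: all 37 members, Ddx3y, up to 4 called genes per direction of each other list and contrast, and, beside results, the leading and defining cell type markers. The members and lists were chosen with earlier results of these data known, so no p-value over a list is given. The 8 cell type marker lists were read as summed CPM per group. Alternatives were 2 other scalings, no and a stricter filter, the compared groups alone, the replicate number as a block, each library left out, both libraries that stood apart left out (DMSO at 2 h replicate 3 and PNU at 6 h replicate 1), nearly identical libraries summed, Ddx3y class as a covariate, libraries under 1 CPM of Ddx3y only, DESeq2 1.42.0 and limma-voom (limma 3.58.1).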

Additional observations from a re-analysis of the deposited data

How the results depend on the processing

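The members' median for PNU against DMSO at 6 h stayed positive under every alternative run. Some members were called in opposite directions by different choices of libraries. Abca1 at 6 h had a log2 fold change of -0.97 without both libraries that stood apart and 0.45 with libraries under 1 CPM of Ddx3y only. In the same order, the difference between times was -0.81 and 0.82 for Abca1, and time in PNU gave -0.89 and 0.74 for Abca1, -0.38 and 0.71 for Hmgcs1, -0.43 and 0.61 for Sqle and -0.26 and 0.74 for Scd2. None of these passed edgeR's test with all libraries. Scaling by DESeq2 size factors, the stricter filter and limma-voom left the counts of genes and of members within 1.5 times, although the calls of Fasn and Acaca over time in PNU were lost under DESeq2 size factors and limma-voom. Upper-quartile scaling did too, but turned the split of genes called over time in PNU from 1273 higher and 1486 lower to 1880 and 1102. Counts follow in the order PNU at 2 h, PNU at 6 h, their difference, time in DMSO and time in PNU, where the main counts were 50, 181, 6, 0 and 2759 genes and 0, 0, 0, 0 and 7 members.

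Without both libraries that stood apart, 9080, 4981, 3788, 117 and 6170 genes and 19, 16, 10, 3 and 18 members were called. With libraries under 1 CPM of Ddx3y only, 8557, 1128, 5568, 254 and 6893 genes and 19, 26, 25, 6 and 25 members were called. With Ddx3y class as a covariate, 3175, 142, 304, 1 and 5857 genes were called. Members called in that fit were 6, 2, 4 and 11 at 2 h, at 6 h, for the difference and for time in PNU. DESeq2 called 2511, 923, 279 and 23 genes in the first 4 contrasts and 4, 9 and 3 members in the first 3. The compared groups alone gave 0 genes at 2 h, 1646 at 6 h (3 members) and 5311 for time in PNU, and could not be fitted for the difference. No filter gave 140 genes at 2 h, 231 at 6 h, 15 for the difference and 1 member at 6 h. Summing nearly identical libraries gave 0 genes at 2 h, 0 at 6 h, 0 for the difference and 0 for time in PNU, with 0 members.

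Same-numbered PNU and DMSO libraries of one time did not deviate together (correlations from -0.068 to 0.055). With 3 libraries a group, some nearly identical, this cannot decide whether the numbers pair the samples. With the replicate number as a block, 311 genes at 2 h, 296 at 6 h and 0 for the difference were called, 1 member at 2 h (Npc2) and 1 at 6 h (Fdps), and the median for time in DMSO was -0.24.

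Among medians of the members, libraries under 1 CPM of Ddx3y gave -0.062, 0.67, 0.82, -0.26 and 0.61 in the 5 contrasts. The difference was 0.078 without both libraries that stood apart. For time in DMSO the median was -0.24 by upper-quartile scaling and by limma-voom, -0.26 without both libraries and -0.30 with the covariate. Leaving out each library in turn gave 0 to 7724, 22 to 1606, 0 to 2947, 0 to 4 and 566 to 6026 genes, and 0 to 13, 0 to 6, 0 to 6, 0 to 0 and 0 to 11 members. The medians ranged from -0.065 to 0.043, 0.15 to 0.42, 0.14 to 0.45, -0.30 to -0.23 and -0.098 to 0.21. The cause of these changes was not tested. Depth limits Abcg1 most, the lowest member in counts.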
